A study of Homo sapiens with 4 samples.

Results

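A set of 10 feedback targets of WNT and β-catenin signalling was described in H1 human embryonic stem cells, an established line of wild-type genotype, after 12 h in E8 medium with 1 µM XMD892. The 10 genes were chosen by symbol (AXIN2, LEF1, TCF7, SP8, NKD1, NKD2, RNF43, ZNRF3, NOTUM and APCDD1), and all 10 were found among the 19775 genes of the deposited table. XMD892 is a small-molecule inhibitor of ERK5, a mitogen-activated protein kinase. E8 is a defined medium that holds insulin, FGF2 and TGFβ and, as the labels describe it, no WNT protein. The labels give 2 samples with XMD892 and 2 in E8 alone, all at 12 h. The 2 XMD892 samples, called replicate 1 and replicate 2, were analysed. The 2 samples in E8 alone were not analysed here, because the table's columns for untreated cells carry a culture time that the samples' labels do not. The values below therefore come from treated cells only, and any effect of XMD892 on them cannot be told apart. Whether the replicates came from separate cultures is not in the labels, and their spread may be technical.

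WNT proteins bind Frizzled and LRP receptors at the cell surface, which stops the destruction complex from degrading β-catenin. β-catenin then enters the nucleus and, on TCF and LEF proteins, switches on target genes. Several targets encode inhibitors of the pathway itself, so their transcripts are widely read as a gauge of how active it is. In human pluripotent cells, strong WNT signalling is known to drive exit towards primitive streak.

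Poly(A) RNA had been sequenced in paired-end reads, and the libraries held 18528689 reads on listed genes in replicate 1 and 20217648 in replicate 2. Values are normalized counts, which the authors had divided by 1 size factor per library, and the whole reads behind them, recovered from the values. Levels between genes are compared as RPKM, reads scaled by the merged exon length of the gene and by the library's reads on listed genes. The cells carried the defining transcripts of pluripotent cells: all 10 markers of that state reached 1 RPKM in both libraries, with SOX2 at 90.2 RPKM in replicate 1 and 98.8 RPKM in replicate 2. These markers also set the libraries apart: POU5F1 stood at 734 RPKM in replicate 1 and 1430 RPKM in replicate 2, while DNMT3B, at 426 and 245 RPKM, was higher in replicate 1. Primitive streak and endoderm markers were mostly low or not listed.

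The 10 genes ran from NOTUM at 0.215 RPKM to SP8 at 27.5 RPKM in the mean of the libraries. The median gene of the 10 stood at 1.36 RPKM, and the median of the 19283 genes with a length at 2.31 RPKM. In both libraries 5 of the 10 reached 1 RPKM, as did 11482 of the 19283 genes with a length. SP8 alone gave 42.4% of the 10 genes' reads in replicate 1 and 52.1% in replicate 2. In all, the 10 genes held 3850 reads in replicate 1 and 4511 in replicate 2.

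**Figure D1:**
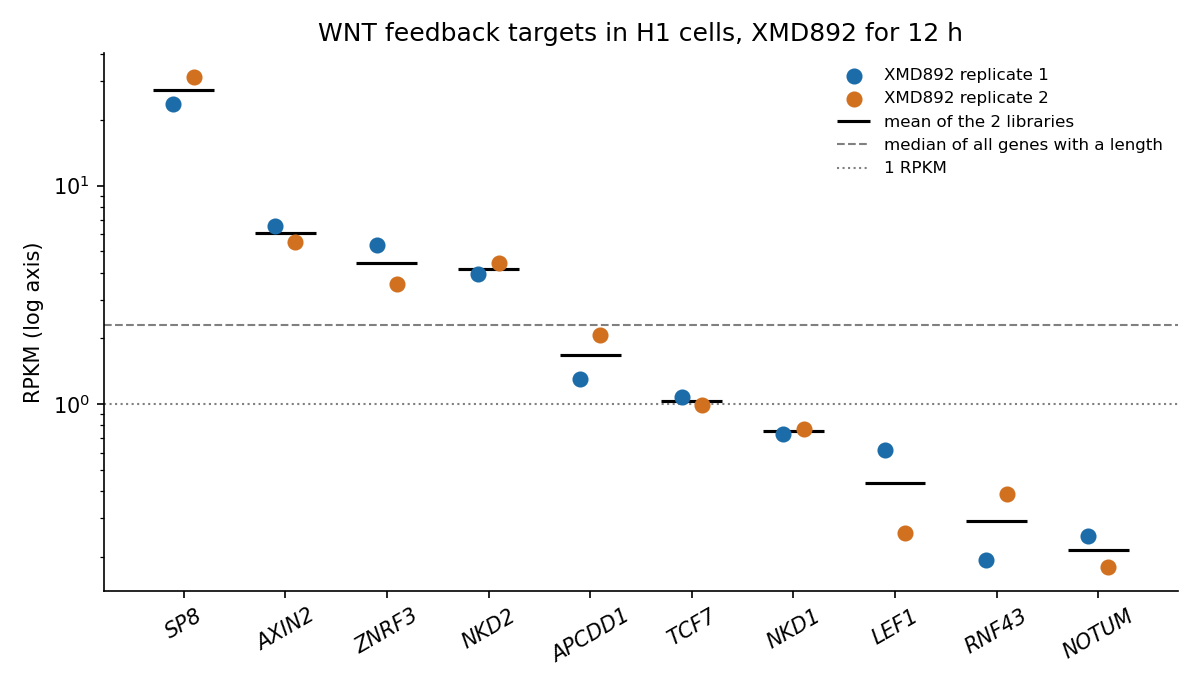
Level of each of the 10 genes in RPKM, on a log axis, in the 2 XMD892 libraries (points) with their mean (bar); the dashed line is the median of all genes with a length, 2.31 RPKM, and the dotted line is 1 RPKM. SP8 stands above the rest at 27.5 RPKM, AXIN2, ZNRF3 and NKD2 lie between 3.54 and 6.56 RPKM, and NKD1, LEF1, RNF43 and NOTUM lie below 1 RPKM in both libraries.

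The promoter stretches of SP8, the highest of the 10, and of TCF7, whose internal start is known to give proteins without the β-catenin binding part, are printed as the DNA next to the starts of 2 genes whose transcripts were measured. Each is the 250 bases before a RefSeq start on GRCh38.p14, read on the gene's own strand. Capitals mark CTTTGA and CTTTGT, letters that the DNA-binding domain of TCF and LEF proteins is known to recognise, and their reverse complements TCAAAG and ACAAAG. SP8 lies at chr7:20786887-20787136 on the minus strand. TCF7 start 1 lies at chr5:134115363-134115612 and TCF7 start 2 at chr5:134123368-134123617, both on the plus strand.
SP8: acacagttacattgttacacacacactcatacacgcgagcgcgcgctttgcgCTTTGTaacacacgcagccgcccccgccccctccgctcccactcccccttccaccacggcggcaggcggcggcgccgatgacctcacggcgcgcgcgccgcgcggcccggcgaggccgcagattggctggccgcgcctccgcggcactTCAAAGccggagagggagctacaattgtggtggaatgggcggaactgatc
TCF7 start 1: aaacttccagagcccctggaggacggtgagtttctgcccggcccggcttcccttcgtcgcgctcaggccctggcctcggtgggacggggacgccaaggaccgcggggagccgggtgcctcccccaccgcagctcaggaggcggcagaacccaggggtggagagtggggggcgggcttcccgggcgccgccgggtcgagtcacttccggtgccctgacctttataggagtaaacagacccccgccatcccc
TCF7 start 2: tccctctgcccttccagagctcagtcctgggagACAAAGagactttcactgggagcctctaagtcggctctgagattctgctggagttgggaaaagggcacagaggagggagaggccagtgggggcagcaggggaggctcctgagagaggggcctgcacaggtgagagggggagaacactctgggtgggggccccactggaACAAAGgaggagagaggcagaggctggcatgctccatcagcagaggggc
RefSeq windows of 300 bases, reaching 50 bases past the start, were matched for 6 of the 10 genes, with 8 windows in all because TCF7 and RNF43 have 2 each. CTTTGA was found on either strand in 1 of the 8 windows, in SP8 at 50 bases before the start. CTTTGT was found in 4 of the 8, in SP8, in the second TCF7 window and in both RNF43 windows. The windows of LEF1, NKD2 and APCDD1 and the first TCF7 window held neither. Among all 35116 windows, 12.9% held CTTTGA, 16.1% held CTTTGT and 26.2% held either. A match is a description of the letters and does not show binding, and the windows leave out distant enhancers, where many WNT response elements lie. The GC content of the 8 windows ran between 43.7% in the second RNF43 window and 77% in NKD2, against a median of 58.7% over all windows. The starts of TCF7 lie 8005 bases apart. Reads from both are joined in the single TCF7 value, so long and short forms cannot be told apart here.

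Among the transcription factors of the set, SP8 was high, and TCF7 and LEF1, which bind DNA as partners of β-catenin, were low. SP8, a zinc finger factor of the Sp family that is needed in the mouse for limb and forebrain development, had 1631 reads in replicate 1 and 2352 in replicate 2. Its level was 23.7 RPKM in replicate 1 and 31.3 RPKM in replicate 2, a mean of 27.5 ± 5.38 RPKM (SD, n = 2) that exceeded 92% of genes with a length. Its position in GENCODE release 29 (GRCh38, as for all positions that follow) is chr7:20782283-20786886, minus strand, in 3 merged exons. TCF7, which encodes TCF1, had 201 and 202 reads, and its level was 1.08 RPKM in replicate 1 and 0.993 RPKM in replicate 2. On the authors' size factors the libraries differed least in this gene among the 10, with an SD of 0.858% of its mean normalized count. With total reads as the scale they differed least in NKD1, by 0.062 on the log2 scale against -0.118 for TCF7. TCF7 is at chr5:134114711-134151865, plus strand, and 2.09% of its exon bases overlap exons of SKP1 on the other strand. LEF1 had 61 reads in replicate 1 and 28 in replicate 2, or 0.614 and 0.258 RPKM, so replicate 1 was the higher. LEF1 is at chr4:108047545-108168956, minus strand, and 5.2% of its exon bases overlap the antisense gene LEF1-AS1. No source used here gives the strand setting of the authors' counting, so overlapping reads of such pairs cannot be told apart.

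The inhibitors that act inside the cell were present in both libraries at similar values. AXIN2, a scaffold of the destruction complex and the most widely used readout of β-catenin activity, had 681.6 normalized counts in replicate 1 and 617.3 in replicate 2. Its level was 6.05 ± 0.722 RPKM (SD, n = 2), the second highest of the 10. AXIN2 is at chr17:65528563-65561647, minus strand. The GENCODE gene AC004805.1 runs through it on the same strand and shares 25.2% of its exon bases, and reads there may have been assigned to AXIN2, to neither gene, or split. NKD1 and NKD2 encode the human Naked cuticle proteins, which bind Dishevelled and restrain the signal. NKD2 had 211 reads in replicate 1 and 257 in replicate 2, a mean of 4.18 ± 0.324 RPKM. NKD1 had 237 and 270 reads, more than NKD2 in both libraries, but per length it was lower, at 0.75 ± 0.0229 RPKM. That order rests on the annotated length: the merged exons of NKD1 cover 17425 bases, against 2885 bases for NKD2. NKD1 is at chr16:50548330-50649249 and NKD2 at chr5:1008829-1038943, both plus strand.

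The paralogous transmembrane ubiquitin ligases ZNRF3 and RNF43, which remove Frizzled receptors from the cell surface, stood at unlike levels. ZNRF3 had 689 reads in replicate 1 and 499 in replicate 2, with a mean of 4.44 ± 1.27 RPKM (SD, n = 2). RNF43 had 27 reads in replicate 1 and 59 in replicate 2, with a mean of 0.292 ± 0.138 RPKM. The libraries ranked opposite ways in the pair: replicate 1 held more of ZNRF3 and replicate 2 more of RNF43, while ZNRF3 was the higher gene in both. The RNF43 value is uncertain, since 59.5% of its exon bases also belong to other genes on its strand, SUPT4H1 and the read-through gene AC004687.2, and 20.3% to TSPOAP1-AS1 on the other strand. No ZNRF3 exon base is shared with another gene. ZNRF3 is at chr22:28883592-29057487, plus strand, and RNF43 at chr17:58352500-58417595, minus strand.

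Of the remaining inhibitors, APCDD1 acts at the cell surface and NOTUM outside the cell. By mean RPKM, APCDD1 exceeded 44.7% of genes with a length and NOTUM 16.2%. APCDD1, a membrane glycoprotein that binds WNT and LRP proteins, had 144 reads in replicate 1 and 248 in replicate 2, with a mean of 1.69 ± 0.535 RPKM (SD, n = 2). NOTUM, a secreted enzyme that strips the lipid from WNT proteins, was the lowest of the 10 at 0.215 ± 0.0495 RPKM. It rested on 14 reads in replicate 1 and 11 in replicate 2. APCDD1 is at chr18:10454628-10489948, plus strand, and NOTUM at chr17:81952507-81961840, minus strand.

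In the order of mean RPKM, SP8 was followed by AXIN2, ZNRF3, NKD2, APCDD1, TCF7, NKD1, LEF1, RNF43 and NOTUM. The ranges of the 2 libraries overlapped for 3 neighbouring pairs, ZNRF3 with NKD2, LEF1 with RNF43 and RNF43 with NOTUM, so the order within these pairs is not resolved. The other neighbours did not overlap, though AXIN2 and ZNRF3 nearly met, at 5.54 RPKM in the lower library for AXIN2 and 5.34 RPKM in the higher library for ZNRF3. Ranges of 2 libraries give little protection against chance.

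The libraries were then set against each other, to describe the spread within the XMD892 group. Differences are replicate 2 minus replicate 1 in log2(normalized count + 1), a scale that understates the difference of low genes, over genes whose normalized count averaged at least 10. With a single library on each side there is no replicate check and no test. All 10 genes passed the minimum, and 5 were higher in replicate 2 and 5 in replicate 1. Their median difference was 0.073, against 0.023 over all 16148 genes. LEF1 was 2.22-fold higher in replicate 1, a log2 difference of -1.12. RNF43 was 2.15-fold higher in replicate 2, a log2 difference of 1.08. They were the 2 of 10 genes past 2-fold, against 10.9% of all genes in either direction. Among genes with a mean normalized count between 10 and 100, where both lie with NOTUM, 26.4% were past 2-fold. Between 100 and 1000 it was 5.93%, with 0 of 6 among the feedback targets, and from 1000 up, where SP8 lies, it was 1.81%.

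For each gene, a 95% interval of the library ratio was taken from the recovered reads (exact binomial, Clopper-Pearson) and put on the normalized scale. It models only the random sampling of reads and holds no variation between cultures or library preparations. Reads without molecular identifiers are not independent molecules, so it may be too narrow even for counting error. The interval left out equal levels for 5 of the 10 genes, against 58.1% of all genes, so gaps wider than such an interval were common in these libraries. For LEF1 the interval ran from -1.85 to -0.48 on the log2 scale and for RNF43 from 0.42 to 1.82, so both reach well inside 2-fold. SP8 differed by 0.50, with an interval of 0.41 to 0.60. APCDD1 differed by 0.76 (0.46 to 1.07) and ZNRF3 by -0.49 (-0.66 to -0.32). AXIN2 differed by -0.14 with an interval of -0.31 to 0.021, and TCF7 by -0.017 with an interval of -0.31 to 0.27. NKD1 and NKD2 differed by 0.16 and 0.26, with intervals that also held 0. For NOTUM the interval was the widest of the 10, from -1.66 to 0.87, which does not resolve a 2-fold difference towards replicate 1 at this depth.

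**Figure D2:**
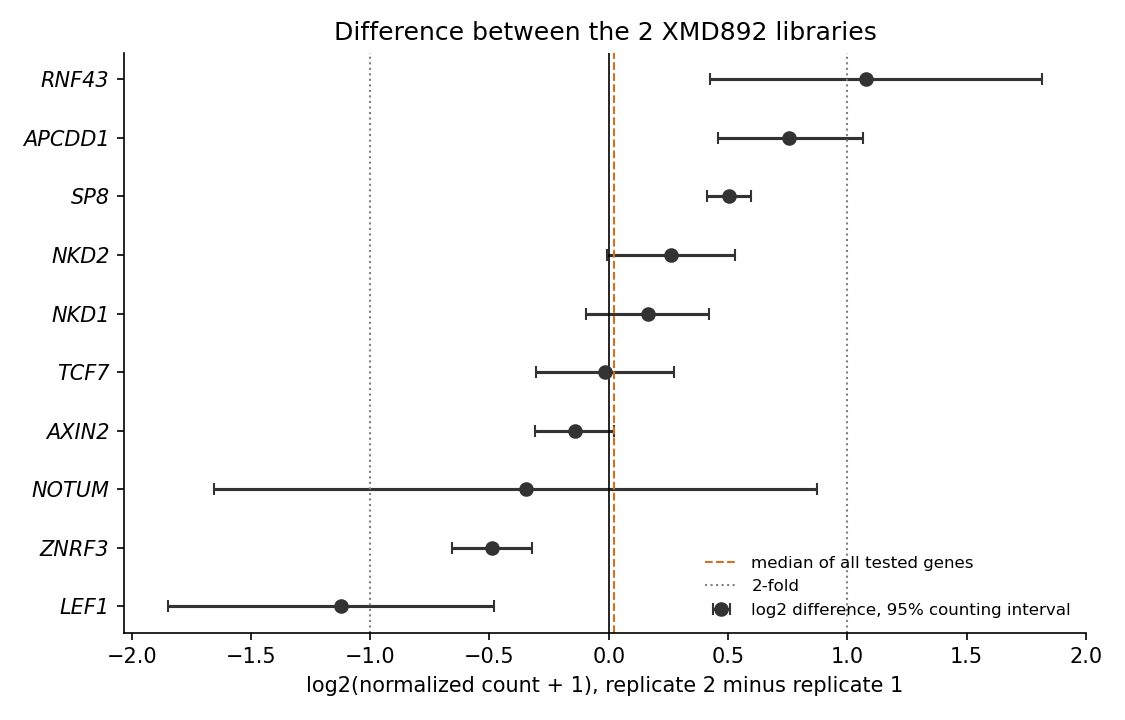
Difference between the XMD892 libraries for each of the 10 genes, as log2(normalized count + 1) in replicate 2 minus replicate 1 (points) with the 95% counting interval (bars); dotted lines mark 2-fold and the dashed line the median of all tested genes, 0.023. LEF1 at -1.12 and RNF43 at 1.08 lie past 2-fold on opposite sides, and the intervals of NKD2, NKD1, TCF7, AXIN2 and NOTUM include 0.

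Set beside genes of similar level, the 10 genes lay within the usual gap between these libraries. LEF1 and RNF43 fell between the 5th and 95th percentile of genes with a mean normalized count of 20 to 50, which were -1.59 and 1.35. APCDD1 at 0.76 was close to the 95th percentile of its level range, 0.81, and SP8 at 0.50 close to that of its own, 0.56.

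**Figure D3:**
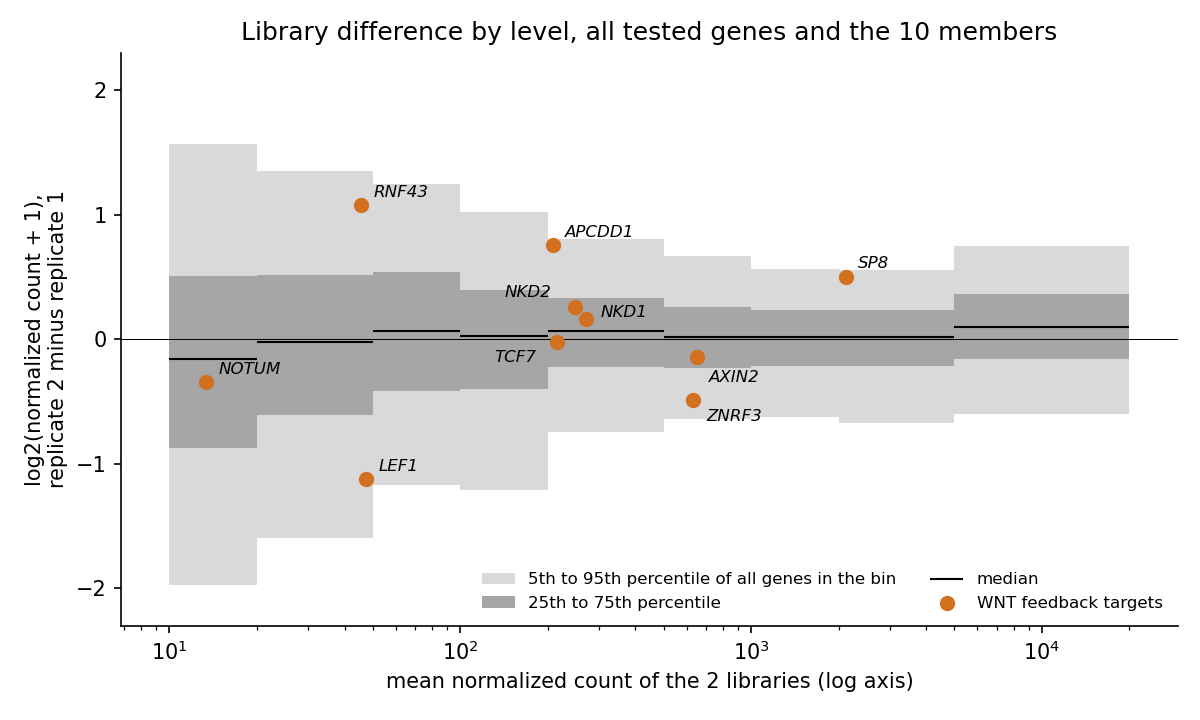
Difference between the XMD892 libraries (y axis, log2, replicate 2 minus replicate 1) against mean normalized count (x axis, log) for the 10 genes (points), over the 5th to 95th and 25th to 75th percentile ranges and the median of all tested genes in 9 bins of level. The grey range narrows as counts rise, and all 10 points lie inside the lighter one.

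Other genes of the pathway were counted by role in 6 lists. The transcripts of the core machinery were higher, in the median, than the feedback targets. The destruction complex list had all 16 genes in the table, 15 of them at 1 RPKM or more in each library, and a median of 11.9 RPKM. Among them AXIN1, the constitutively expressed paralog of AXIN2, stood at 12.2 RPKM in replicate 1 and 8.88 RPKM in replicate 2, and the β-catenin kinase GSK3B at 12.0 and 10.2 RPKM. Of 14 nuclear genes the table held 13, of which 12 stood at 1 RPKM or more in each library, with a median of 6.74 RPKM. CTNNB1, which encodes β-catenin, stood at 43.4 RPKM in replicate 1 and 47.9 RPKM in replicate 2. TCF7L1, the member of the TCF family known mainly as a repressor in embryonic stem cells, stood at 38.6 and 22.7 RPKM, and TCF7L2 at 7.04 and 3.27 RPKM. Both were above TCF7 and LEF1 in each library.

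Of 18 receptor genes the table held 17, and 15 stood at 1 RPKM or more in each library. The highest was FZD7, a Frizzled receptor known to be abundant in human embryonic stem cells, at 41.6 RPKM in replicate 1 and 22.8 RPKM in replicate 2. LGR4, which binds R-spondins and thereby protects Frizzled from ZNRF3 and RNF43, stood at 20.6 and 15.8 RPKM. Of 19 secreted or surface modulators 10 were listed, and DKK1, DKK2, DKK4, RSPO1, RSPO2 and RSPO3 were not. SFRP2, a secreted protein that binds WNTs, was the highest at 312 RPKM in replicate 1 and 311 RPKM in replicate 2. SFRP1, of the same family, stood at 71.4 and 41.9 RPKM. Of the 2 genes for WNT secretion, the acyltransferase PORCN stood at 3.46 and 4.44 RPKM and the carrier WLS at 0.169 and 0.243 RPKM, on 14 and 22 reads.

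Among 22 other symbols of WNT-responsive genes the table held 14, and 7 stood at 1 RPKM or more in each library. CCND1 (cyclin D1), at 99.2 RPKM in replicate 1 and 63.8 RPKM in replicate 2, and MYC, at 44.8 and 28.7 RPKM, were the highest by mean, and both also answer to other pathways. In replicate 2, ID2 at 40.1 RPKM and GBX2 at 36.2 RPKM stood above MYC. SP5, a close relative of SP8, was not listed. Over the 6 lists, 68 of 87 different symbols passed the minimum. Of these, 2 were past 2-fold higher in replicate 2, against 4.76% of all genes, and 5 in replicate 1, against 6.14% of all genes. Higher in replicate 2 were MIXL1, a primitive streak factor, with 31 reads in replicate 1 and 104 in replicate 2, and ID2, an inhibitor of helix-loop-helix factors, with 621 and 1787 reads. Higher in replicate 1 were CYP26A1, which degrades retinoic acid, with 105 and 8 reads, the receptor TNFRSF19 with 48 and 10 reads, the WNT antagonists FRZB and SFRP5, and TCF7L2 with 879 and 446 reads. The median over the 68 genes was -0.011. As with LEF1 and RNF43, these gaps ran in both directions.

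**Figure D4:**
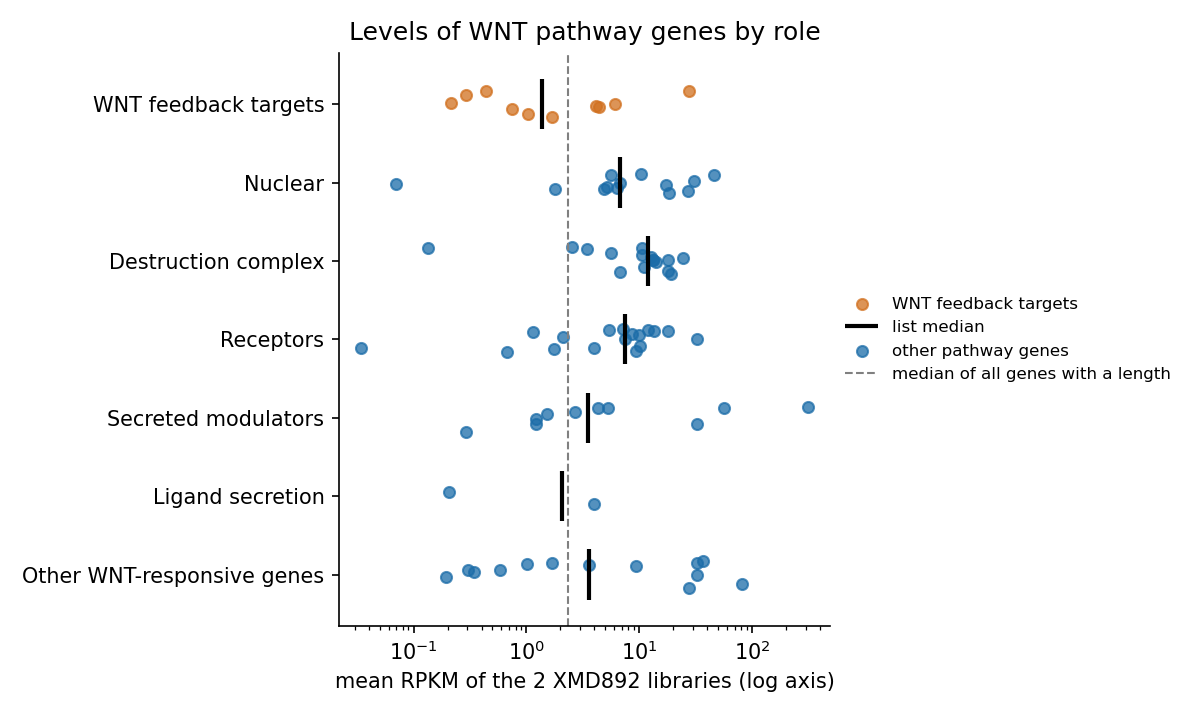
Mean RPKM of the 2 XMD892 libraries on a log axis for the genes of each WNT pathway list (points), with the list median (bar) and the median of all genes with a length (dashed line, 2.31 RPKM). The feedback targets have a median of 1.36 RPKM, and the destruction complex, receptor and nuclear lists have medians of 11.9, 7.54 and 6.74 RPKM.

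Markers of other cell types also differed between the libraries. Of 9 mesenchymal and fibroblast markers 5 were listed, with a summed level of 11688 normalized counts in replicate 1 and 9686 in replicate 2. That sum joins opposite differences: TAGLN had 4515 reads in replicate 1 and 423 in replicate 2, and COL1A1 had 1429 and 196, while THY1, which pluripotent cells also carry, had 3698 and 7685. COL1A2 had 1242 and 867 reads, and the smooth muscle actin gene ACTA2 had 4 and 8. The fibroblast markers COL3A1, LUM, DCN and POSTN were not listed. Of 9 primitive streak and mesoderm symbols 7 were listed, with a sum of 1246 normalized counts in replicate 1 and 1549 in replicate 2, most of it from KDR with 1081 and 1271 reads. All 5 of these markers that passed the minimum were higher in replicate 2, such as GSC with 11 and 33 reads, as were 8409 of all 16148 genes. Their median log2 difference was 0.92, against 0.023 over all genes. For 3 of the 5 the counting interval left out equal levels, against 58.1% of all genes. The defining gene T, listed under its older symbol, was below the minimum, with 8 and 9 reads. Of 6 neuroectoderm markers 5 were listed, with a sum of 19424 in replicate 1 and 11006 in replicate 2. Most of that sum came from NES alone, with 17496 and 10074 reads. All 4 of these markers that passed the minimum were higher in replicate 1, such as OTX2 with 128 and 34 reads, as were 7739 of all 16148 genes. Their median log2 difference was -0.71, against 0.023 over all genes. For 3 of the 4 the counting interval left out equal levels, against 58.1% of all genes. The part of these differences in those of LEF1, RNF43, APCDD1, SP8 and ZNRF3 was not tested.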

How the data were processed

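The deposited values are a signal, gene counts after division by a size factor for each library. This was read from the values: in both columns 100% were whole multiples of 1 step, within 0.01 reads. The size factor was 0.932 (replicate 1) and 0.948 (replicate 2). Per the submitters' processing notes, which give no roles, the build was hg38 and the tools included DESeq2 1.26.0, featureCounts 1.5.3, STAR and Trimmomatic 0.36. No source used here gives the annotation, the strand setting or the rule for listing genes, and a gene that is not listed is never taken as 0. Columns were matched to samples by treatment, time and replicate number in their names. Of 9 columns, 7 matched no sample and were not used, so the planned limma test against E8 was not run.

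RPKM used merged exon lengths from GENCODE release 29 (GRCh38), matched by exact symbol. TMM factors came from edgeR 4.0.16 in R 4.3.3, and the rest from Python 3.11.15 with scipy 1.17.1. The code for the calls was also run on simulated data. No outcome of that run is given here, so it is not used as evidence for the 2-fold calls of LEF1 and RNF43. All 10 genes are named, and from the pathway lists the highest genes and those past 2-fold. AXIN1, GSK3B, TCF7L1, LGR4 and others were added after their values were seen, for their roles. The members and lists were chosen with earlier results of these data known. Alternatives covered the scale, pseudocount, minimum, gene length and each replicate.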

Additional observations from a re-analysis of the deposited data

How the results depend on the processing

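No paired analysis was possible because only the XMD892 group had matched columns, so no test between groups was run, and the alternatives planned for that test were not run either. The number of the 10 genes past 2-fold between the libraries was 2, and it was 1 with total reads as the scale, 1 with a pseudocount of 5 (LEF1 in each case) and 0 with a minimum mean normalized count of 50, which LEF1, RNF43 and NOTUM do not reach. Over all genes, 1761 were past 2-fold, 3350 with no minimum and 711 with a minimum of 50. Total reads as the scale moved the median of all genes by -0.10 on the log2 scale, and with it 33.3% of the genes past 2-fold were higher in replicate 2, against 43.7% on the authors' scale. Relative to that median, RNF43 differed by 1.06 with total reads and 1.05 on the authors' scale. The median of the 10 genes turned to -0.028 with total reads. The direction of each of the 10 genes held on all 4 scales. A change of scale mostly shifts all genes together, here by -0.10 in the median at most, so directions could hardly change. The check is therefore no support for them, and the counting intervals of AXIN2, TCF7, NKD1, NKD2 and NOTUM held 0. The number of genes at 1 RPKM in both libraries was 5, and 6 with the longest transcript as the length or with the authors' size factors. Leaving out each replicate gave 5 to 6, a count that could not fall below 5, because only the remaining library had to reach the level. With the longest transcript, TCF7 stood at 1.95 RPKM, against 1.04 RPKM on merged exons, APCDD1 at 2.63 against 1.69 RPKM, LEF1 at 0.673 against 0.436 RPKM, and NKD2 stood above ZNRF3 at 5.59 and 4.52 RPKM. LEF1, RNF43 and NOTUM, with 11 to 61 reads a library, are limited by depth.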
